A study of Danio rerio with 3 samples.

Results

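The Id genes encode inhibitors of DNA binding, small helix-loop-helix proteins without the basic region that basic helix-loop-helix (bHLH) factors use to touch DNA. They were followed in zebrafish embryos given a morpholino against slc2a10. The members were the probes whose gene symbol in the platform annotation is id1, id2a, id3 or id4, which gave 6 probes of 4 genes among 43603 probes and 15548 named genes. The 4 genes were selected on their log2 ratios in this knockdown contrast, the same values that are given below, so they are described without a test.

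Id proteins bind E proteins, the common partners of tissue-specific bHLH factors, and keep them from pairing and from binding DNA. In many vertebrate tissues Id transcription rises when bone morphogenetic proteins (BMPs) activate their receptors and the receptor Smads. Id proteins are known for holding neural and other progenitors in an undifferentiated, dividing state. In zebrafish, id2a is known to be needed for retinal progenitors to become neurons and glia.

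The study asked how knockdown of slc2a10, which encodes the facilitative transporter GLUT10, changes transcript levels in whole wild type embryos of strain Ab. A morpholino (MO) is an antisense oligomer injected into the fertilized egg. The slc2a10 MO was given at 7.5 ng per embryo and the control MO at 5 ng, and all embryos were kept at 28 degrees until 48 hours post fertilization. The slc2a10 MO embryos were then selected for a recognizable Class 1 phenotype, so dose and selection differed between the groups along with the target. Each of 3 slc2a10 MO replicates held 10 to 15 embryos and shared 1 two-colour array with the same pool of 3 control MO replicates. The slc2a10 MO sample was labelled with Cy3 on replicates 1 and 3 and with Cy5 on replicate 2.

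The slc2a10 MO covers the splice donor of exon 2, per the labels, and is shown here because it defines the knockdown. It is 23 bases long, and its complement is written in reverse order. The capitals mark the letters GTAAGT, a consensus splice donor, or their complement in reverse order.
slc2a10 MO: caaataaagtccACTTACttggt
complement of the slc2a10 MO: accaaGTAAGTggactttatttg

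The values are 1 log ratio of the 2 channels per probe and array, read here as log2. The sign of replicate 2 was turned for the dye swap, since its deposited values correlated with replicates 1 and 3 at -0.65 and -0.69. The turn lines up the arrays but does not say which group is higher, because no source used here states the direction of the ratio. The sample titles set the slc2a10 MO against the control pool on replicates 1 and 3 and name the pool first on replicate 2. They do not say which channel was divided by which. Values are therefore signed by slc2a10 itself. Its single probe gave 0.50, 0.42 and 0.47 on replicates 1, 2 and 3, and positive values lie on this side. Had the submitters turned replicate 2 before deposit, a dye bias stronger than the sample difference could give the same negative correlations. Under that reading the plain mean of id4 would be 0.23 and that of id2a 0.18. These means would still hold part of the dye bias, because only replicate 2 has the other dye order. Balanced over the dye orders, id4 would be -0.03 and id2a 0.01. If each array was divided as Cy5 by Cy3, positive means higher in the control pool. If it was divided as Cy3 by Cy5, positive means higher in the slc2a10 MO embryos. A log ratio holds no level, so the presence of a tissue could not be checked against its markers. In whole embryos, fewer cells of a type and less RNA per cell cannot be told apart.

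The Id genes differed among themselves. The transcripts of id4 and id2a lay on the slc2a10 side on every array, by 1.74-fold and 1.42-fold, whereas those of id1 and id3 lay at 0 within the spread of the arrays. The id2a value is the average of 3 probes, from 1.12-fold to 1.79-fold, and the lowest of them overlapped id1 and id3. With Cy5 divided by Cy3, id4 and id2a were lower in the slc2a10 MO embryos than in the control pool, and in the other reading they were higher.

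**Figure D1:**
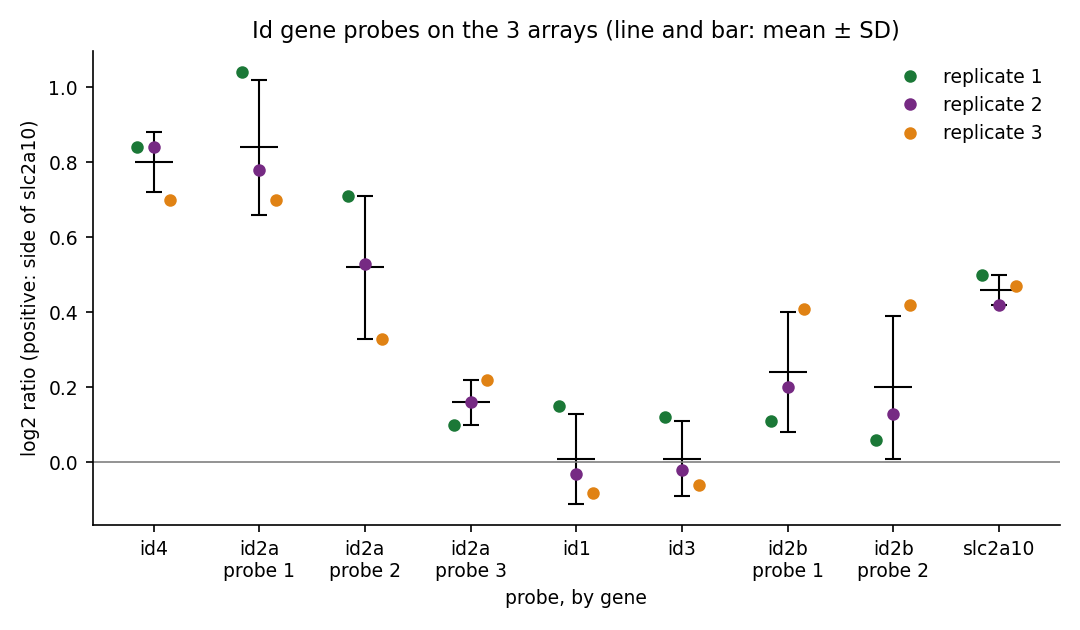
The log2 ratio of each Id probe, of the 2 id2b probes and of the slc2a10 probe (vertical axis, positive on the side of slc2a10) is plotted for replicates 1, 2 and 3, with the mean ± SD as a line and bar. The id4 values sit between 0.70 and 0.84, the id2a probes are spread from 0.10 to 1.04, and id1 and id3 fall on both sides of 0.

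In mammals Id4 is known from neural progenitors of the forebrain. The single id4 probe read 0.84, 0.84 and 0.70 on replicates 1, 2 and 3. All 3 arrays were far from 0 and close to each other, with replicate 3 the lowest. The mean log2 ratio was 0.80 ± 0.08 (SD, n = 3). By size of the mean it ranked 114 among the 15548 named genes, so that 0.733% of the genes were as large or larger, on either side. On the slc2a10 side alone it ranked 81. Without any 1 replicate the mean stayed between 0.77 and 0.84.

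The id2a gene was measured by 3 probes, whose average was 0.61, 0.49 and 0.42 on replicates 1, 2 and 3. The 3 arrays lay on the same side, with replicate 1 the highest. Their mean was 0.51 ± 0.10 (SD, n = 3), which placed the gene at rank 446 by size, with 2.87% of all named genes as large or larger.

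The id2a probes agreed in side and disagreed in size. The highest probe read 1.04, 0.78 and 0.70 on replicates 1, 2 and 3, with a mean of 0.84 ± 0.18 (1.79-fold). The middle probe read 0.71, 0.53 and 0.33, with a mean of 0.52 ± 0.19 (1.44-fold). The lowest probe read 0.10, 0.16 and 0.22, with a mean of 0.16 ± 0.06 (1.12-fold). The order of the 3 probes was the same on all 3 arrays. The gap between the highest and the lowest probe was 0.94 on replicate 1, 0.61 on replicate 2 and 0.48 on replicate 3. Replicate 1 was the highest array for the upper pair of probes and the lowest array for the remaining one.

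The gap between the highest and lowest probe mean of id2a was 0.68. Among the 1591 named genes with at least 3 probes the median gap was 0.13, and 21 genes (1.32%) had a wider one than id2a. Of the 3 probes the middle one carries no transcript accession in the annotation, and no source used here gives the place of the probes in id2a. Without its lowest probe, an alternative chosen after the probes were seen, the mean of id2a was 0.68.

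**Figure D2:**
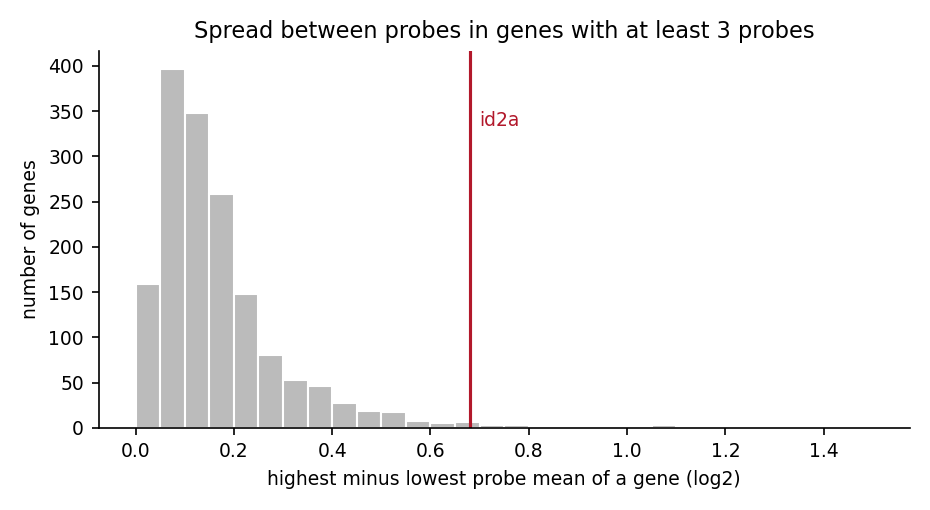
The histogram counts genes (vertical axis) by the difference between their highest and lowest probe mean in log2 (horizontal axis) over the 1591 genes with at least 3 probes, of which 2 lie beyond the plotted limit of 1.5. The red line marks id2a at 0.68, where few genes are found.

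The id1 gene, a widely used readout of BMP receptor activity, was measured by 1 probe. It read 0.15, -0.03 and -0.08 on replicates 1, 2 and 3. The arrays lay on both sides of 0, with replicate 1 alone on the slc2a10 side. Their mean was 0.01 ± 0.12 (SD, n = 3), and 8.59% of all named genes had a smaller mean in size.

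The id3 gene, another direct BMP target in vertebrate embryos, was also measured by 1 probe. It read 0.12, -0.02 and -0.06, again with replicate 1 alone on the slc2a10 side. Averaged, the log2 ratio was 0.01 ± 0.10 (SD, n = 3), and 10.6% of all named genes were smaller in size. In the order of the means, id4 lay above id2a and both lay above id3 and id1. The arrays of id4 (0.70 to 0.84) lay above those of the id2a average (0.42 to 0.61), whose lowest array lay above the highest of id1 (0.15) and of id3 (0.12). The single id2a probes did not keep this order. The highest probe (0.70 to 1.04) overlapped id4, and the lowest (0.10 to 0.22) overlapped id1 and id3. Since the members were selected on these values, their order is a description only. The neighbours id3 and id1 did not differ beyond their spread.

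The dye swap was used to set apart the part of a ratio that follows the dye, given the turn of replicate 2. In a fit with a term for dye, the part of the ratio that followed the dye was -0.03 for id4, 0.01 for id2a, 0.03 for id1 and 0.03 for id3. The part that followed the knockdown was 0.81 for id4, 0.50 for id2a, 0.00 for id1 and 0.01 for id3. Only replicate 2 had the other dye order, so the dye part cannot be told apart from a difference of that replicate. The knockdown part also holds the differences in dose and selection.

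**Figure D3:**
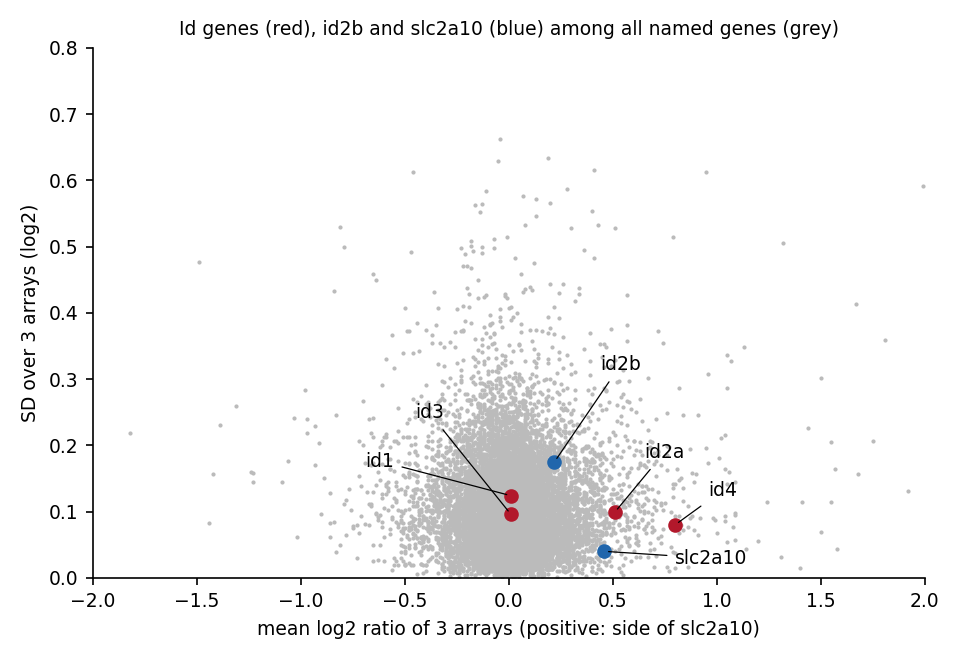
Each grey point is a named gene, with the mean log2 ratio of the 3 arrays on the horizontal axis (positive on the side of slc2a10) and the SD over the arrays on the vertical axis; 4 genes lie beyond the plotted mean of 2 in size and 13 above the plotted SD of 0.8. Red points mark the Id genes and blue points id2b and slc2a10, and id4 and id2a lie right of the main cloud while id1 and id3 lie in its middle.

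Across all 15548 named genes the median log2 ratio was 0.01, with quartiles of -0.07 and 0.09, and the median SD over the arrays was 0.09. The SDs of the Id genes, from 0.08 to 0.12, were near this median. By limma, at a Benjamini-Hochberg adjusted p under 0.05, 2996 genes (19.3%) were called, of which 1728 (11.1%) had a positive and 1268 (8.16%) a negative ratio. Of the 4 Id genes, 2 were among those called with a positive ratio and 0 among those with a negative one. Since the members were selected on this contrast, nothing is read from that count.

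The genes with the most similar values were found by Euclidean distance over the log2 ratios of the 3 arrays. Nearest to id4 were the glycogenin gene gyg1b (distance 0.087, mean 0.83 ± 0.08), the retinoid-binding protein gene rlbp1b (distance 0.0955, mean 0.80 ± 0.02) and the angiotensinogen gene agt (distance 0.101, mean 0.80 ± 0.04). Nearest to id2a were pou4f2 (distance 0.0316, mean 0.51 ± 0.09), which encodes a transcription factor of retinal ganglion cells, pcp4a (distance 0.0318, mean 0.50 ± 0.08), which encodes a calmodulin-binding peptide of neurons, and the mitochondrial aspartate aminotransferase gene got2b (distance 0.0423, mean 0.52 ± 0.12). With 3 arrays a short distance is a description only.

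The centre of the distribution is crowded, so likeness to id1 and id3 singles out little. Within a distance of 0.1 lay 610 genes for id1 and 920 for id3, against 20 for id2a and 2 for id4. Nearest to id1 were LOC100149966 (distance 0.00654), churc1 (0.0124) and klhl24a (0.015). Nearest to id3 were cyp11a1.1 (distance 0.00919), impa2 (0.0137) and agxt2 (0.0156). The distance between id1 and id3 themselves was 0.0404, and 41 genes were nearer to id1 than id3 was. Between id2a and id4 it was 0.507, and 1283 genes were nearer to id2a than id4 was.

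Zebrafish carry a further copy of the Id2 gene, id2b, which was not a member. Its average over 2 probes was 0.08, 0.16 and 0.42 on replicates 1, 2 and 3. All arrays lay on the slc2a10 side, but replicate 3 stood above the others on both probes (0.41 and 0.42). The mean log2 ratio was 0.22 ± 0.17 (SD, n = 3) and did not pass (limma adjusted p = 0.0679). Without replicate 1 it was 0.29 and passed (limma adjusted p = 0.0201), and without replicate 3 it was 0.12 (limma adjusted p = 0.29). The lowest array of id2a (0.42) was level with the highest of id2b.

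**Figure D4:**
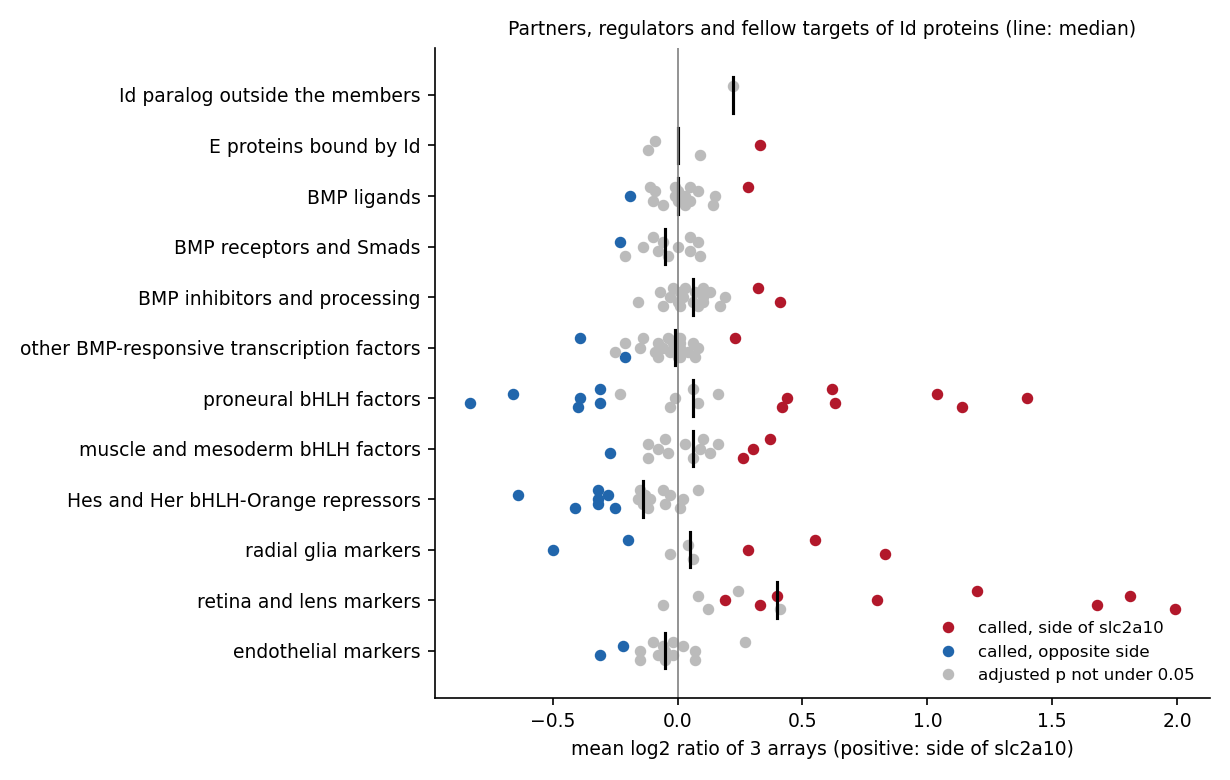
Each point is a gene of a list, placed by its mean log2 ratio over the 3 arrays (horizontal axis, positive on the side of slc2a10); red and blue points were called by limma with a positive and a negative ratio, grey points were not called, and the black line is the median of the list. The proneural bHLH genes spread to both sides, and the Hes and Her genes lie mostly left of 0. The genes of the BMP lists lie between -0.39 and 0.41.

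The lists that follow were chosen with earlier results of these data known, so their counts beside all named genes are descriptions only. Of the E proteins, which are the direct binding partners of Id proteins, 1 of 4 was called, on the slc2a10 side. Among all named genes 11.1% were called on that side, and nothing is read from 1 call among 4 genes. The called gene was tcf4 with 0.24, 0.36 and 0.38 on replicates 1, 2 and 3 and a mean of 0.33 ± 0.07 (limma adjusted p = 0.00469). The values of tcf3b (0.09 ± 0.07), tcf12 (-0.09 ± 0.10) and tcf3a (-0.12 ± 0.08) did not pass. The median of the list was 0.00, against 0.01 for all named genes.

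Proneural bHLH factors, the neuronal partners of E proteins, went to both sides. Of 19 measured genes 7 were called with a positive and 6 with a negative ratio, with a median of 0.06. The background shares are 11.1% and 8.16%, but the list was chosen with earlier results of these data known. The gene neurod6b, a neuronal differentiation factor, read 1.39, 1.40 and 1.41 on replicates 1, 2 and 3 (mean 1.40 ± 0.01, limma adjusted p = 7.43e-06). The gene neurod1 had a mean of 1.14 ± 0.04, and neurod6a of 0.62 ± 0.08. The retinal interneuron factor gene bhlhe23 had 1.04 ± 0.09, bhlhe22 had 0.63 ± 0.17 and neurod2 had 0.44 ± 0.17. The remaining positive call, named after its value was seen, was olig2, a factor of motor neuron and oligodendrocyte progenitors, at 0.42 ± 0.11 (limma adjusted p = 0.00227).

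On the opposite side the gene olig3, a dorsal neural tube factor, read -0.79, -0.87 and -0.82 on replicates 1, 2 and 3 (mean -0.83 ± 0.04, limma adjusted p = 7.31e-05). The retinal progenitor factor gene atoh7 had a mean of -0.66 ± 0.11, and atoh1b, needed for hair cells, -0.40 ± 0.14. The neurogenin gene neurog1 had -0.39 ± 0.25, ascl1b -0.31 ± 0.27 and ascl1a -0.31 ± 0.05. The calls of neurog1, ascl1a and ascl1b did not outlast the loss of replicate 2: neurog1 was then -0.33 (limma adjusted p = 0.0742), ascl1a -0.28 (0.0533) and ascl1b -0.20 (0.269). Without replicate 1, ascl1b was -0.27 (limma adjusted p = 0.0945).

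Hes and Her factors are bHLH repressors, many of them Notch targets, that act on proneural genes. Of 19 measured, 7 were called with a negative and 0 with a positive ratio, with a median of -0.14 and 3 genes above 0. Beside the 8.16% of all genes called on that side, no test of the list was made. The gene her12 read -0.96, -0.83 and -0.13 on replicates 1, 2 and 3 (mean -0.64 ± 0.45), so that replicate 3 stood near 0, and hes6 had -0.41 ± 0.11. Means of -0.32 were found for her2 (SD 0.13), her13 (SD 0.09) and helt (SD 0.23), and hes2.2 had -0.28 ± 0.08. The small SD of her13 is that of an average of 2 probes that disagreed. On replicates 1, 2 and 3 one probe read -0.16, -0.36 and -0.59, and the other -0.66, -0.19 and 0.08. The call of helt was lost without replicate 1 (-0.23, limma adjusted p = 0.0801) and without replicate 2 (-0.27, 0.141).

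Among muscle and mesoderm factors 3 of 15 were called with a positive and 1 with a negative ratio, beside 11.1% and 8.16% of all named genes, with a median of 0.06. The list also names the homeobox gene meox1, which was not called. The myogenic factor gene myog, of differentiating muscle, had 0.37 ± 0.10 (limma adjusted p = 0.00352), the blood factor gene tal1 0.30 ± 0.19 and twist2 0.26 ± 0.13. The early myogenic factor gene myod1 was opposite at -0.27 ± 0.07 (limma adjusted p = 0.0102). With fewer arrays some of these calls were lost, for tal1 without replicate 1 (0.25, limma adjusted p = 0.0571) and replicate 3 (0.23, 0.0979), for twist2 without replicate 1 (0.19, 0.0512) and replicate 2 (0.28, 0.0815), and for myod1 without replicate 2 (-0.26, 0.0849).

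Genes of the BMP pathway, upstream of Id transcription, were read against the 11.1% positive and 8.16% negative calls among all named genes. Of 17 measured BMP ligands 1 was called on each side, near those shares, with a median of 0.00. These were bmp16 at 0.28 ± 0.10 (limma adjusted p = 0.0122) and bmp7a at -0.19 ± 0.07 (limma adjusted p = 0.0415). The call of bmp7a was lost without replicate 1 (-0.16, limma adjusted p = 0.0918) and replicate 2 (-0.18, 0.256). The ligand genes bmp2b (0.15 ± 0.11) and bmp4 (-0.01 ± 0.06) did not pass.

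Of 12 BMP receptors and Smads 0 were called with a positive and 1 with a negative ratio, beside 11.1% and 8.16% of all genes. The median of the list was -0.05. The called gene was the receptor Smad gene smad5, with -0.07, -0.29 and -0.33 on replicates 1, 2 and 3 (mean -0.23 ± 0.14, limma adjusted p = 0.0389). Its call was lost without replicate 2 (-0.20, limma adjusted p = 0.229) and replicate 3 (-0.18, 0.15). The other receptor Smad measured in this list, smad1, had -0.08 ± 0.13 and did not pass.

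Of 21 BMP inhibitors and processing factors 2 were called, both on the slc2a10 side, beside 11.1% of all named genes, with a median of 0.06. Both encode secreted inhibitors. The gene nbl1 read 0.46, 0.37 and 0.41 on replicates 1, 2 and 3 (mean 0.41 ± 0.04, limma adjusted p = 0.00136), and sostdc1a read 0.34, 0.35 and 0.26 (mean 0.32 ± 0.05, limma adjusted p = 0.00465). Without replicate 1 there were 4 positive calls and 1 negative call. The inhibitory Smad genes smad6b (0.10 ± 0.08) and smad7 (0.00 ± 0.06), both feedback targets of BMP receptors, did not pass, nor did the chordin gene chrd (0.02 ± 0.06).

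Other transcription factors that BMP signalling controls in embryos were set beside the Id genes as fellow targets, although cdx4 and sp5l in this list are better known as Wnt targets. Of 26 measured, 1 was called with a positive and 2 with a negative ratio, beside 11.1% and 8.16% of all named genes. The median of the list was -0.01. The homeobox gene msx1b had 0.23 ± 0.08 (limma adjusted p = 0.0201). The ventral homeobox gene vox read -0.47, -0.49 and -0.21 on replicates 1, 2 and 3 (mean -0.39 ± 0.15, limma adjusted p = 0.00537), and the forkhead gene foxi1 had -0.21 ± 0.08. The call of msx1b was lost without replicate 2 (0.28, limma adjusted p = 0.0598) and replicate 3 (0.23, 0.0605), and that of foxi1 without replicate 2 (-0.16, 0.303). The positive and negative calls numbered 1 and 4 without replicate 1, 0 and 1 without replicate 2 and 0 and 3 without replicate 3. The mean log2 ratio of every gene in the list lay between -0.39 and 0.23. This range holds id1 and id3 (both 0.01) and lies below id4 and the average of id2a. It also holds the mean of the lowest id2a probe (0.16). Since all 4 Id genes were selected on this contrast, nothing is read from their places inside or above the range.

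Markers of tissues that could carry Id transcripts were measured on the same arrays. Of 13 retina and lens markers 8 were called with a positive and 0 with a negative ratio, beside 11.1% and 8.16% of all named genes, with a median of 0.40. These markers too were listed with earlier results of these data known, so the count is a description only. The lens markers bfsp2 (0.41 ± 0.48), cryaa (0.24 ± 0.34), cryba1b (0.12 ± 0.35) and lim2.4 (0.08 ± 0.13) did not pass. Nor did rx1 (-0.06 ± 0.05), the only marker of this list below 0. The calls were led by the photoreceptor factor gene crx (1.99 ± 0.59), the bipolar cell factor gene vsx1 (1.81 ± 0.36) and the pigment epithelium isomerase gene rpe65a (1.68 ± 0.16). The arrestin gene sagb had 1.20 ± 0.06, rlbp1b 0.80 ± 0.02 and the eye field gene pax6b 0.40 ± 0.09. The called gene pax6a, named after its value was seen, had 0.19 ± 0.07 (limma adjusted p = 0.043). It is the average of 5 probes that disagreed, with means from -0.04 to 0.39. Without replicates 1, 2 and 3 in turn, 7, 7 and 10 of these markers were called with a positive ratio. Beside the same shares, of 8 radial glia markers 3 were called on the slc2a10 side, fabp7a (0.83 ± 0.15), slc1a2b (0.55 ± 0.31) and gfap (0.28 ± 0.12). The opposite calls were the glutamine synthetase gene glula (-0.50 ± 0.02) and sox2 (-0.20 ± 0.06). The median of the list was 0.05, and the call of sox2 was lost without replicate 1 (-0.17, limma adjusted p = 0.0808), replicate 2 (-0.20, 0.193) and replicate 3 (-0.23, 0.0528). The part of these tissues in the id4 and id2a values was not tested.

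Endothelial cells are another site of Id transcription. Of 15 endothelial markers 0 were called with a positive and 2 with a negative ratio, beside 11.1% and 8.16% of all named genes, with a median of -0.05. The vascular factor gene sox18 had -0.31 ± 0.25, and the scavenger receptor gene stab2 had -0.22 ± 0.01, the average of a probe at -0.47 and a probe at 0.02. Without replicate 2 there was 1 positive and 0 negative calls, and without replicate 3 there was 1 of each sign. The call of sox18 was lost without replicate 1 (-0.17, limma adjusted p = 0.085) and replicate 2 (-0.35, 0.0595), and that of stab2 without replicate 2 (-0.23, 0.125) and replicate 3 (-0.22, 0.0573).

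**Figure D5:**
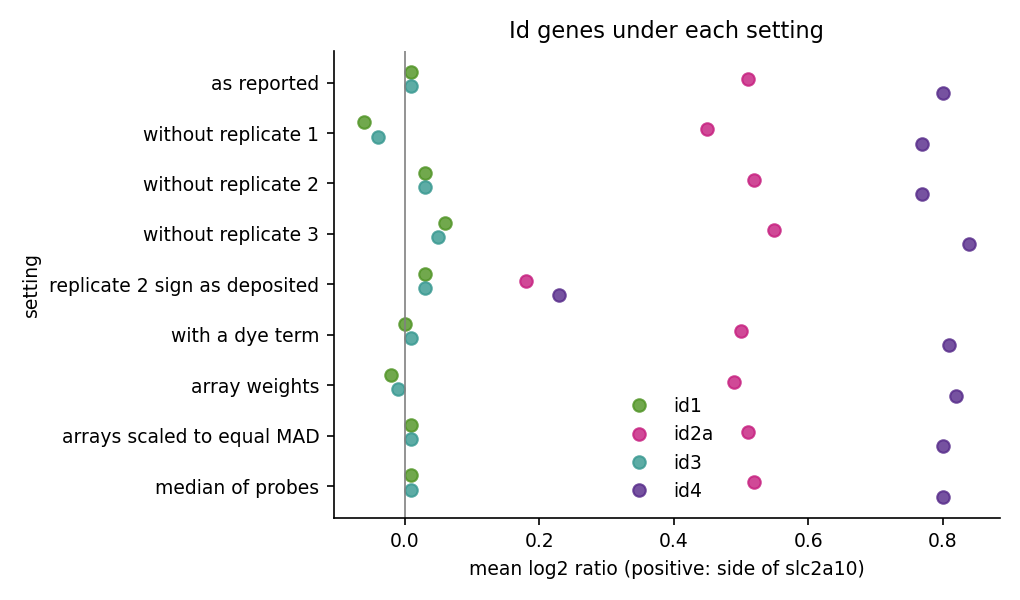
The mean log2 ratio of each Id gene (horizontal axis, positive on the side of slc2a10) is plotted as reported and under 8 other settings (vertical axis). The values of id4 and id2a stay near 0.80 and 0.51, except with the sign of replicate 2 as deposited, where they are 0.23 and 0.18, and those of id1 and id3 stay near 0.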

How the data were processed

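Whole-embryo RNA was measured on 3 two-colour arrays. The deposited values are 1 log2 ratio per probe and array, made and centred by the authors (column medians -0.0016, -0.0076 and -0.0045). The submitters' processing notes name Partek without its role. The log base is not stated and was read from the values. As log10 their largest size, 4.85, would exceed the raw range of a 16-bit scanner. Since the processing is unknown, this does not settle the base, and all fold values rest on reading it as log2. If the values were natural logs, all log2 sizes here would be understated. How arrays were scanned, background-corrected and normalized, and which channel was divided by which, is not stated in these sources, so signal over background and saturation are unknown.

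Of 43648 features, 45 control spots were left out. Symbols from the platform annotation were updated through Entrez IDs (23534 probes) and accessions (42) with the RefSeq table of assembly GRCz12tu, and 141 were kept. In all, 23717 probes had 1 symbol, 0 several and 19886 none. Each gene's value is the mean of its probes.

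The mean of the 3 arrays was tested against 0 with limma 3.58.1 in R 4.3.3 (lmFit, eBayes). The threshold was a Benjamini-Hochberg adjusted p under 0.05 over 15548 genes. The fit was also run on simulated ratios that follow its own assumptions, which is no test of the calls on these arrays. The pool is 1 control sample on every array, so the spread between control embryos is left out. An exact sign test on 3 arrays cannot go below p = 0.25.

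The members and lists were chosen with earlier results of these data known. The text names the members, slc2a10, id2b, up to 6 called genes per list and side with the largest size, some genes of each pathway list that did not pass, and the 3 nearest genes of each member. Alternatives were each replicate left out, the sign of replicate 2 as deposited, a dye term, array weights, equal spread of the arrays, the median of probes, robust eBayes, an ordinary t statistic and single probes.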

Additional observations from a re-analysis of the deposited data

How the results depend on the processing

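The values of the 4 Id genes moved by no more than 1 SD under 7 of 8 alternatives. Without 1 replicate they ranged from 0.77 to 0.84 for id4, 0.45 to 0.55 for id2a, -0.06 to 0.06 for id1 and -0.04 to 0.05 for id3. With the sign of replicate 2 as deposited, id4 was 0.23 and id2a 0.18, because opposed values then cancel. Without its lowest probe id2a was 0.68. Over all named genes, 1728 were called with a positive and 1268 with a negative ratio. Leaving out a replicate gave 981 to 1642 and 575 to 1569, with the lowest counts without replicate 2, whose dyes were swapped. Array weights gave 2722 and 2489. The weights were 0.508, 2.81 and 0.701 for replicates 1, 2 and 3, so that fit leaned on replicate 2, the only array with the other dye order. An ordinary t statistic gave 1 and 1 (3262 at an unadjusted p under 0.05). The sign of replicate 2 as deposited gave 0 and 0 by limma (28 at an unadjusted p under 0.05). Of the 170 genes of the lists 26 and 22 were called. Leaving out a replicate gave 24 to 28 and 11 to 23, and array weights 34 and 35. Both counts were 0 with an ordinary t statistic and with the sign of replicate 2 as deposited, where ascl1b turned to 0.04. With a dye term 7 of the 45 named genes called lost their call, and with robust eBayes 1 did, her12 (limma adjusted p = 0.051). By list, array weights gave 3 negative calls among BMP ligands and 2 among receptors and Smads, 5 positive calls among BMP inhibitors, 6 negative calls among the other BMP-responsive factors and 4 among endothelial markers. With a dye term there were 0 negative calls among BMP ligands, receptors and Smads, and endothelial markers, and 0 positive calls among the other BMP-responsive factors. With each probe tested by itself there were 0 negative calls among receptors and Smads, 3 positive calls among BMP inhibitors and 1 negative call among the other BMP-responsive factors. With 3 arrays the precision is limited by their number. The ratio within each array already pairs a replicate with the pool. No paired analysis was possible beyond that, because no second group carries replicate numbers.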
